A study of Rattus norvegicus with 6 samples.

Results

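Reads of lysine tRNA were followed in AR42J cells, an established rat line of the exocrine pancreas, with and without the bile salt sodium taurocholate. A lysine read was a read sequence whose alignments to mature tRNA were all to nuclear references named LysCTT or LysTTT in the deposited files, where the last letters are the anticodon. Of the 403 mature tRNA references with reads, 20 were Lys, 19 of them Lys-CTT and 1 Lys-TTT. Lys reads numbered 171596 of 1671615 tRNA reads in 8461 distinct sequences. LysCTT (below, Lys-CTT) had 152174 reads and LysTTT (Lys-TTT) 17079, and a further 2343 reads matched both anticodons and formed a group of their own. Left out were 18 reads that matched Lys together with another tRNA. There were 3 untreated libraries and 3 from cells kept with 200 µM of the salt for 30 min, all grown in medium with serum, penicillin and streptomycin. The model is a single established line. Whether the 3 libraries of a group stem from separate dishes is not given, so p-values speak only of the spread among libraries, which could be technical. In such bulk samples, fewer cells that make a fragment and less of it per cell cannot be told apart.

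A tRNA carries its amino acid on the CCA end that is added to its 3′ terminus and reads the codon with the anticodon in a loop in the middle of the molecule. Under stress, nucleases such as angiogenin cut tRNAs in or beside the anticodon loop and release tRNA-derived stress-induced RNAs (tiRNAs), and shorter fragments (tRFs) arise from cuts in the D and T loops. Lysine tRNAs with the anticodons CTT and TTT read the codons AAG and AAA, and genes that spell slightly different tRNAs with the same anticodon are called isodecoders. Bile salts such as taurocholate are used to set off pancreatitis in animals and injury in acinar cells.

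Most Lys-CTT reads matched 1 of 2 isodecoders, shown first because their reads differed in length. Positions run from 1 at the tRNA's first base, as in the files. The reads spelled 9 of the Lys-CTT references identically over positions 1 to 76, with 5 copies on chromosome 10, 3 on chromosome 2 and 1 on chromosome 7. A reference on chromosome 6 differed from them at 2 positions that face each other in the anticodon stem, A29G and T41C, with the base of the 9 copies first. Below are the most abundant error-free 51-nt read of each isodecoder, with those positions in capitals.
9-copy isodecoder: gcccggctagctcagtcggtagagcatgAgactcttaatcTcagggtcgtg
chromosome 6 isodecoder: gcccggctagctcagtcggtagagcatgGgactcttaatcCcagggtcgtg
The anticodon CTT lies at positions 34 to 36 in both. The 9-copy read had 3802 reads over the 6 libraries and the chromosome 6 read 20970.

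The fragments on which the results turn are these, with the last base in capitals for the first 4, which end at positions 31, 32, 33 and 34 just before or inside the anticodon.
Lys-CTT 1 to 31: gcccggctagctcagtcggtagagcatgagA
Lys-CTT 1 to 32: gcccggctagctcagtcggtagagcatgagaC
Lys-CTT 1 to 33: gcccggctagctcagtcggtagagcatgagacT
Lys-CTT 1 to 34: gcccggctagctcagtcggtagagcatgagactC
The next 3 show a 5′ fragment that starts at position 3, its first bases in capitals, an internal fragment, its last base in capitals, and a 3′ fragment, the CCA end in capitals.
Lys-CTT 3 to 32: CCGgctagctcagtcggtagagcatgagac
Lys-CTT 16 to 32: tcggtagagcatgagaC
Lys-CTT 61 to 76: cccacgttgggcgCCA
Over all libraries they had 2289, 4492, 4455, 2072, 3061, 2299 and 2753 reads in the order shown. The last 4 are from Lys-TTT. In the 3′ fragments the capital is the base at which the read differed from the reference (A69G, reference base first), in the internal fragment the base at position 28 that tells Lys-TTT from Lys-CTT (G28C), and in the longer one the anticodon. In the internal fragment that base is the last one. A Lys-CTT read of this span with a mismatched last C would be assigned to Lys-TTT too. How many such reads there were was not tested.
Lys-TTT 60 to 76: tccctgttcGggcgcca
Lys-TTT 60 to 75: tccctgttcGggcgcc
Lys-TTT 13 to 28: cagtcggtagagcatC
Lys-TTT 32 to 54: ctTTTaatctgagggtccagggt
They had 5899, 2633, 1122 and 152 reads.

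Each library held between 193750 and 348451 reads aligned to tRNA, of which 17394 to 38444 were Lys. Reads were 16 to 51 nt long and carried at most 1 mismatch, insertion or deletion. A read of 51 nt, the longest in the files, does not show where its fragment ends. Such reads made up 1.19% to 12.6% of tRNA reads, so values are given with and without them. Among miRNA reads of the same libraries, miR-148a-3p, an abundant miRNA of acinar cells, had 283926 to 421622 CPM (counts per 1000000 reads, here of miRNA). The other acinar markers were at or near 0, with no read of miR-216a-5p and 5 reads each of miR-216b-5p and miR-217-5p in all. Summed blood cell markers had 1869 to 3434 CPM, with no read of miR-451-5p and at most 4.66 CPM of miR-223-3p, summed liver markers 6.88 to 26.7 CPM and summed muscle markers 22.5 to 82.7 CPM. Stroma markers (miR-143-3p and miR-145-5p) summed to 9936 to 13842 CPM, and endocrine markers (miR-375-3p and miR-7a-5p) to 41192 to 59657 CPM, nearly all miR-7a-5p. That miRNA had 54913, 59654 and 58633 CPM untreated and 54637, 41186 and 49472 CPM with taurocholate, where all 3 libraries were below the untreated ones. The part of other cell types in the results was not tested.

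The share of tRNA reads that were Lys did not differ between the groups beyond the spread of the libraries. It was 8.98%, 10.9% and 9.01% untreated and 11.4%, 9.97% and 10.3% with taurocholate, which gives 9.64% ± 1.12 against 10.5% ± 0.730 (SD, n = 3). The groups overlapped and the difference did not pass a two-sided exact permutation test (p = 0.3), which with 3 against 3 libraries cannot go below 0.1. Without reads of 51 nt the shares were 8.82%, 9.05% and 8.67% untreated and 8.21%, 9.07% and 9.90% with taurocholate (exact permutation p = 0.7). Lys-CTT alone took 7.74% to 10.2% of tRNA reads, Lys-TTT 0.800% to 1.22% and the shared reads 0.110% to 0.180%, with overlapping groups in each case (exact permutation p = 0.3, 0.9 and 0.8, and at least 0.6 after adjustment over these 4 shares).

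Reads assigned to the Lys anticodons fell in different fragment classes, with the limits of the Lys-TTT reference given below. Lys-CTT was seen mostly as 5′ fragments. A tiRNA-5 here starts at positions 1 to 4 and has at least 31 nt, a tRF-5 starts there and has at most 30 nt, an i-tRF touches neither end, and tRF-3 and tiRNA-3 reach within 3 nt of the last base with at most 30 or at least 31 nt. The tiRNA-5 share of Lys-CTT reads was 41.9%, 55.9% and 41.2% untreated and 61.2%, 44.6% and 40.5% with taurocholate, and the tRF-5 share lay between 14.7% and 24.1%. Internal fragments took 21.8% to 36.1% and tRF-3 only 1.79% to 4.06%. Few reads began where the long 5′ fragments ended. The tiRNA-3 of Lys-CTT numbered 1 to 15 reads per library, and reads of any length starting at positions 32 to 37 numbered 67 to 109.

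**Figure D1:**
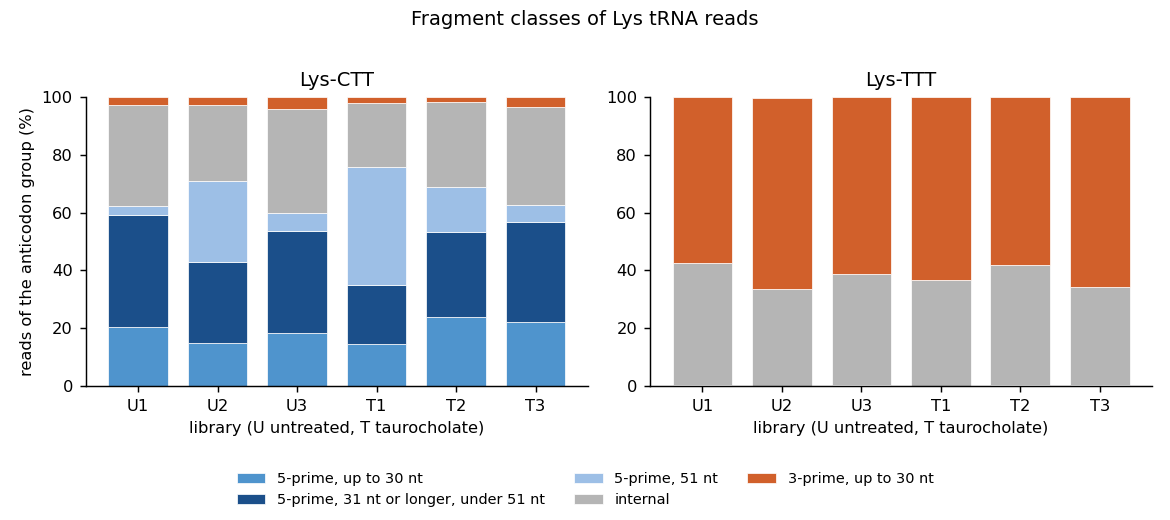
Share of each fragment class (vertical axis, percent of the reads of the anticodon group) in each of the 6 libraries, for Lys-CTT (left) and Lys-TTT (right). 5′ fragments fill most of the Lys-CTT bars, with 5′ reads of 51 nt from 3.25% to 41.0%, while 3′ fragments lead in all 6 Lys-TTT bars. The tiRNA-3, at most 0.313%, is not drawn.

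Lys-TTT was seen mostly as tRF-3 with all reads in, and mostly as i-tRF over error-free reads (92.4% to 95.9%). With all reads in, its tRF-3 share was 57.5%, 66.0% and 61.01% untreated and 63.2%, 57.9% and 65.4% with taurocholate. The rest was then nearly all i-tRF (33.4% to 41.9%). The Lys-CTT share exceeded the Lys-TTT share in 6 of 6 libraries by a mean of 47.5 ± 8.79 percentage points (SD, n = 6) for tiRNA-5 and 18.9 ± 3.74 for tRF-5. For tRF-3 it was lower in 6 of 6, with a mean difference of -58.9 ± 3.51. All 5 class differences passed a two-sided exact sign-flip permutation test over the 6 libraries (p = 0.031, the smallest 6 libraries can give, and 0.031 after Benjamini-Hochberg adjustment over the 5), although that for i-tRF was -1.27 points with p = 0.5 (exact sign-flip) without reads of 51 nt. A change of these differences with taurocholate was not detectable (exact permutation p = 0.5 to 0.8) with all reads in. Without reads of 51 nt the tRF-5 difference was larger with taurocholate by 5.13 points and the change for tiRNA-5 was -3.49 points, each with groups that did not overlap (exact permutation p = 0.1, the smallest 3 against 3 libraries give).

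The Lys-TTT values rest on a single reference, and 2 measurements bear on how completely it catches reads. The mismatch A69G was in 93.7% to 96.1% of its 3′ reads, so error-free reads hold few of them. Over error-free reads the tRF-3 difference between the anticodons was -2.23 points (exact sign-flip p = 0.0625) and none of the 5 class differences passed after adjustment. Those for tiRNA-5 (48.6 points), tRF-5 (18.4) and i-tRF (-64.7) had 1 sign in 6 of 6 libraries (exact sign-flip p = 0.031, adjusted p = 0.0521). Lys-TTT had 0 error-free tiRNA-5 and tRF-5 reads in every library. Those differences are thus the Lys-CTT shares themselves, and their sign was fixed. The i-tRF difference was taken with most Lys-TTT 3′ reads left out. With all reads in, a mere 7 to 12 reads per library started at positions 1 to 4 of the Lys-TTT reference. Lys-CTT reads with the mismatch C7A, a base that is G in the Lys-TTT reference (C7G), numbered 71 to 166 per library. Of these, whatever their start, 93.0% to 99.2% had at most 27 nt. Among all Lys-CTT reads starting at position 1 it was 2.34% to 7.64%, a set that is not matched to the former by start. A read that differs from every reference at 2 or more bases is not in these tables, so a lack of Lys-TTT 5′ fragments in the cells cannot be told apart from reads that met no reference.

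Within Lys-TTT, most 3′ fragments began at positions 60 and 61 in the T arm. Reads starting at 60 made up 46.8% to 55.1% of Lys-TTT reads and those starting at 61 7.84% to 9.91%. Of the Lys-TTT internal reads, those starting at positions 12 to 16 in the D arm, such as the fragment of 13 to 28 shown above, were 52.5%, 59.6% and 61.7% untreated and 72.8%, 66.9% and 68.1% with taurocholate. All 3 taurocholate libraries lay above all 3 untreated ones there. Internal reads starting at 32 to 35 in the anticodon loop were 23.6%, 22.4% and 16.7% untreated and 13.4%, 15.9% and 14.7% with taurocholate, with the taurocholate libraries below the untreated ones. Both shares were singled out after their values were seen and are given as descriptions.

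The comparison of Lys-CTT classes turned with reads of 51 nt. These numbered 502, 9685 and 1103 untreated and 14178, 3566 and 1642 with taurocholate for Lys-CTT, and 2 in all for Lys-TTT. Untreated library 2 and taurocholate library 1 held most of them, so the groups overlapped. With these reads in, the tiRNA-5 share of Lys-CTT was 46.3% ± 8.29 against 48.8% ± 10.9 (SD, n = 3). Without them it was 39.98%, 38.6% and 37.4% untreated and 34.3%, 34.5% and 36.7% with taurocholate. The taurocholate libraries then lay below the untreated ones, with means of 38.7% ± 1.27 against 35.2% ± 1.34 (SD, n = 3), an exact permutation p of 0.1 and an adjusted p of 0.5 over the 10 class shares. The tRF-5 share without them was 21.1%, 21.1% and 19.8% untreated and 24.9%, 28.5% and 23.7% with taurocholate, with the taurocholate libraries above (same p values). None of the 10 class shares passed after adjustment with or without reads of 51 nt, and with 3 against 3 libraries none could.

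In a fit over all tRNA class features of the series, no Lys class was called. A class feature is a fragment class of an anticodon, and 7 of the 12 Lys features had enough reads to be tested with edgeR's quasi-likelihood test. Of all 230 tested, 0.00% passed at a Benjamini-Hochberg adjusted p under 0.05, and DESeq2 called none either, with 22 and 16 features at an unadjusted p under 0.05. At an unadjusted p under 0.05, 1 Lys feature was higher and 0 lower, against 4.78% and 4.78% of all features tested. The Lys count was 0 without untreated library 3 or taurocholate library 2, where 14 and 25 features over all had such a p. With scaling by library totals it was 0 too, and 3 of 20 such features over all were higher. The Lys feature was tRF-5 of Lys-CTT, at 15432, 15323 and 12634 CPM untreated and 17507, 22915 and 18783 CPM with taurocholate, here per 1000000 tRNA reads after scaling by edgeR's TMM factors. All 3 taurocholate libraries were above the untreated ones (log2 fold change 0.45, SE 0.16, adjusted p = 0.461), and without reads of 51 nt the log2 fold change was 0.52 (SE 0.16, adjusted p = 0.269). Of the 7, its groups alone did not overlap upwards, and 0 did so downwards, against 7.39% and 12.2% of all features. The tiRNA-5 of Lys-CTT had 31721, 56670.1 and 28009 CPM untreated and 72935, 42516 and 34194 CPM with taurocholate, with overlapping groups (log2 fold change 0.36, SE 0.36, adjusted p = 0.722). Without reads of 51 nt its log2 fold change was 0.0663 (SE 0.14). With all reads in, it was 0.0242 without taurocholate library 1 and 0.72 without untreated library 2. The i-tRF and tRF-3 of either anticodon and the shared i-tRF had log2 fold changes between -0.0950 and 0.17, each within 1 SE of 0. The median over the 7 Lys features was 0.15, against 0.00727 over all features, and scaling by library totals in place of TMM moved the latter to -0.13.

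The 3′ ends of Lys-CTT 5′ reads under 51 nt gathered in 3 zones. The main zone, positions 31 to 36, runs from the anticodon stem into the anticodon and held 63.4% ± 1.25 of these reads untreated and 62.3% ± 0.875 with taurocholate (SD, n = 3). Ends at 25 to 27, between the D arm and the anticodon stem, held 11.8% to 14.5%, and ends at 40 to 42, on the 3′ side of that stem, 12.4% to 17.1%. The 5′ ends lay at position 1 in 46.7% to 57.6% of the reads and at position 3 in 32.7% to 44.9%, with few at position 2 (1.97% to 3.26%). The differences between the groups in these 3 zones did not pass (exact permutation p = 0.2, 1 and 0.3).

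**Figure D2:**
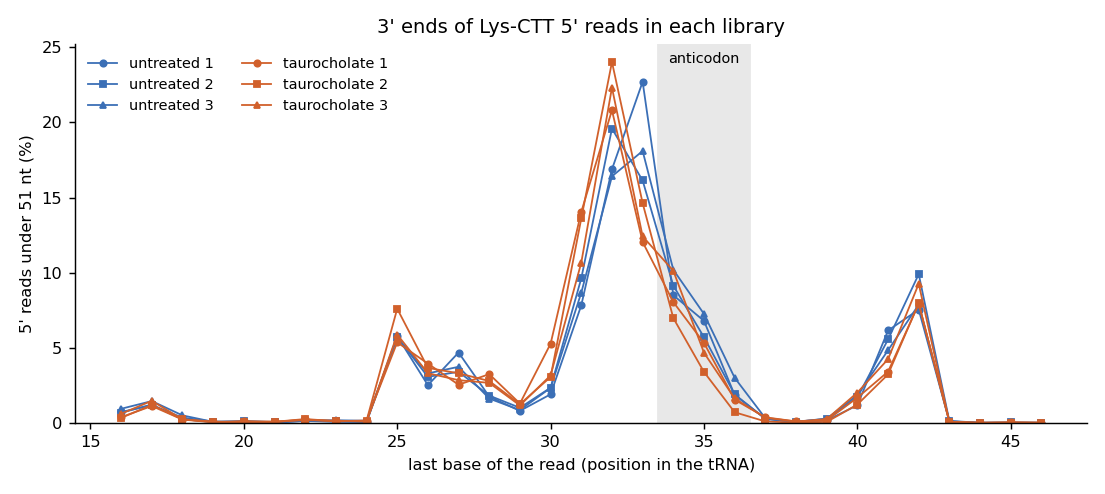
Percent of Lys-CTT 5′ reads under 51 nt (vertical axis) by the tRNA position of their last base (horizontal axis), 1 line per library, with the anticodon at 34 to 36 shaded. The taurocholate lines rise earlier, with 10.7% to 14.04% of ends at position 31 against 7.82% to 9.62% untreated, and all libraries have a further peak at 42.

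Within the main zone the taurocholate libraries ended earlier in the tRNA. Reads ending at 31 had 4984, 5176 and 4190.3 CPM untreated and 7356, 9523 and 6587 CPM with taurocholate. Every taurocholate library was above every untreated one (log2 fold change 0.71, SE 0.20, adjusted p = 0.212, edgeR with Benjamini-Hochberg adjustment over 468 cut sites). Reads ending at 32, the most frequent end over the 6 libraries together, had 10755, 10543 and 7939.7 CPM untreated and 10904, 16814 and 13786 CPM with taurocholate, and again the groups did not overlap (log2 fold change 0.51, SE 0.22, adjusted p = 0.324). Reads ending at 33 had 14466, 8683 and 8755 CPM untreated and 6307, 10237 and 7666 CPM with taurocholate and overlapped (log2 fold change -0.40, SE 0.27, adjusted p = 0.546), as did those ending at 34 (log2 fold change 0.00848, SE 0.19). Reads ending at 35 had 4323, 3066 and 3506 CPM untreated and 2785, 2369 and 2880.1 CPM with taurocholate, with the taurocholate libraries below the untreated ones (log2 fold change -0.44, SE 0.19, adjusted p = 0.324).

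The smallest p among higher Lys cut sites belonged to ends at 30 and 28 and to 3′ fragments starting at 55. Ends at 30 had 1209, 1257 and 1125 CPM untreated and 2759, 2135 and 1949 CPM with taurocholate (log2 fold change 0.93, SE 0.20, adjusted p = 0.169). Ends at 28 had 1111, 974 and 780.3 CPM untreated and 1696, 1947 and 1642 CPM with taurocholate (log2 fold change 0.88, SE 0.20, adjusted p = 0.169). Fragments from 55 to the CCA end, a start inside the T loop, had 28.1, 44.1 and 45.6 CPM untreated and 126, 108 and 83.9 CPM with taurocholate (log2 fold change 1.38, SE 0.33, adjusted p = 0.169). In all 3 the groups did not overlap. Among lower ones the smallest p belonged to ends at 43, 35 and 16, of which 43 and 16 were scarce. Ends at 43 had 56.2, 51.5 and 60.8 CPM untreated and 39.0, 34.3 and 19.97 CPM with taurocholate (log2 fold change -0.85, SE 0.36, adjusted p = 0.324), with the taurocholate libraries below the untreated ones, and ends at 16 had 457, 360.3 and 450.9 CPM untreated and 195, 228 and 372 CPM with taurocholate (log2 fold change -0.66, SE 0.29, adjusted p = 0.324), with overlap. Reads of 51 nt had 3508, 35486 and 5472 CPM untreated and 61453, 20320.1 and 6531 CPM with taurocholate, a wide spread within each group (log2 fold change 0.99, SE 1.003, adjusted p = 0.671).

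No cut site was called. Of 101 Lys cut-site features 32 were tested, with 0.00% of all 468 passing after adjustment in edgeR and none in DESeq2. Unadjusted p values under 0.05 numbered 71 in edgeR and 34 in DESeq2. At an unadjusted p under 0.05, 7 Lys sites were higher and 1 lower (21.9% and 3.12%), against 9.40% and 5.77% of all sites tested. Under library totals 4 of 7 such Lys sites were higher, against 13 of 49 such sites over all tRNAs. With 1 library left out, such Lys sites numbered from 4 to 10, against 33 to 74 over all tRNAs. There were 4 without untreated library 1 (51 over all) and 5 without untreated library 3 (33). Groups did not overlap upwards for 8 Lys sites and downwards for 3 (25% and 9.38%), against 13.7% and 9.62% of all. The 8 are Lys-CTT ends at 22, 26, 28, 29, 30, 31 and 32 and the start at 55, and the 3 are ends at 35, 36 and 43. The median log2 fold change was 0.15 over the Lys sites and 0.0763 over all, which library totals moved to -0.12. The Lys-TTT starts at 60 (5771, 7117 and 6577 CPM untreated and 8059, 5458 and 8013 CPM with taurocholate, log2 fold change 0.15, SE 0.21, adjusted p = 0.750) and 61 (log2 fold change 0.12, SE 0.20, adjusted p = 0.772) overlapped, as did the scarce start at 59 (log2 fold change 0.59, SE 0.30, adjusted p = 0.380).

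**Figure D3:**
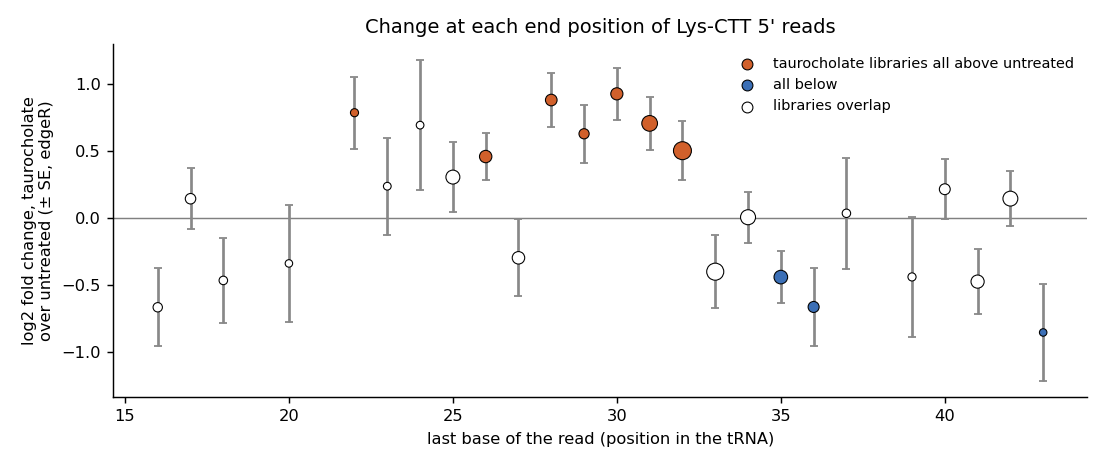
log2 fold change of taurocholate over untreated (vertical axis, edgeR, bars ± SE) at each tested end position of Lys-CTT 5′ reads (horizontal axis), with points that grow with the mean level. All 5 ends from 28 to 32 lie above 0 with groups that do not overlap, the most at 30 (0.93), and ends at 33, 35 and 36 lie below 0.

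As one number, the mean last base of Lys-CTT 5′ reads of 26 to 40 nt was position 33.72, 33.77 and 33.69 untreated and 33.13, 33.11 and 33.53 with taurocholate. All 3 taurocholate means were below all 3 untreated ones, a difference of -0.471 nt on average (33.7 ± 0.0404 against 33.3 ± 0.238 (SD, n = 3)). Its exact permutation p was 0.1, the smallest that 3 against 3 libraries allow, so the design cannot pass 0.05. The shift includes no read of 51 nt. Lys reads are part of all tRNA reads, so they are no independent support for a change seen over all tRNAs.

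The shift was visible in the balance of 2 neighbouring cuts, 32 and 33, just before the anticodon. Of reads ending at 32 or 33, the share ending at 33 was 57.4%, 45.2% and 52.4% untreated and 36.6%, 37.8% and 35.7% with taurocholate. The taurocholate libraries lay close together and below every untreated one (51.7% ± 6.14 against 36.7% ± 1.06 (SD, n = 3), exact permutation p = 0.1). It was singled out after its values were known. Among reads starting at position 1 the share was 62.0%, 51.8% and 58.4% untreated and 40.2%, 44.8% and 41.5% with taurocholate, and among those starting at 3 it was 43.7%, 30.9% and 35.6% untreated and 26.6%, 24.5% and 22.6% with taurocholate. In both the groups stood apart in the same direction. Internal Lys-CTT fragments, which are other reads of the same libraries, also had a lower share at 33 with taurocholate. Of i-tRF ending at 32 or 33, the share ending at 33 was 42.9%, 38.4% and 41.6% untreated and 30.8%, 26.7% and 28.3% with taurocholate (exact permutation p = 0.1). Whether the i-tRF share differs with mismatched reads left out was not tested.

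The last base of a read can differ from the tRNA, which shifts its end by 1. Of Lys-CTT 5′ reads ending at 31 to 36, 23.3% to 34.5% had a mismatched last base. The share of these reads with a mismatched C was 5.54%, 5.41% and 5.68% untreated and 2.02%, 2.91% and 3.02% with taurocholate, with the groups apart. A mismatched G was 16.8% in taurocholate library 1 and at most 4.56% in the other 5. With the end set at the last matched base, the mean end was 33.43, 33.53 and 33.42 untreated and 32.80, 32.85 and 33.27 with taurocholate, and the share ending at 33 was 54.9%, 45.7% and 53.1% untreated and 31.995%, 42.2% and 43.8% with taurocholate. Over error-free reads that share was 60.3%, 46.4% and 53.96% untreated and 31.1%, 42.6% and 39.4% with taurocholate. The groups stayed apart in each case, each with an exact permutation p of 0.1.

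**Figure D4:**
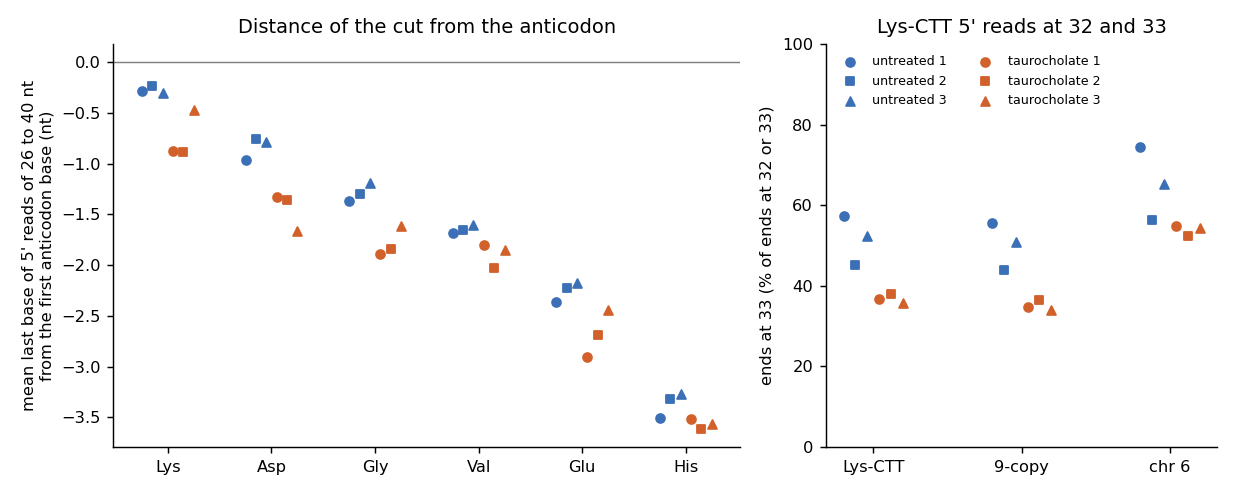
Left, mean last base of 5′ reads of 26 to 40 nt in nt from the first anticodon base (vertical axis) for Lys and 5 other amino acids, and right, the share of ends at 33 among ends at 32 or 33 for Lys-CTT and its 2 isodecoders, with 1 point per library. The taurocholate points lie below the untreated ones in every column, with the Lys means nearest to the anticodon and chromosome 6 highest in the share at 33.

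The 2 Lys-CTT isodecoders differed in where their reads ended, in every library. Only reads that cover position 29 can be assigned, so this comparison leaves out ends before it. A read was assigned to the 9 copies if it matched any of them and not the chromosome 6 reference, and the reverse for chromosome 6. Assigned reads can match further Lys-CTT references too, so 9-copy reads need not stem from the 9 copies alone. Of assignable Lys-CTT reads of 51 nt, the share of the chromosome 6 isodecoder was 79.9%, 82.8% and 78.3% untreated and 81.9%, 84.9% and 84.4% with taurocholate. Of assignable 5′ reads ending at 31 to 36 it was 13.9%, 14.5% and 18.9% untreated and 14.1%, 9.72% and 13.5% with taurocholate. The difference was 67.9 ± 5.24 percentage points (SD, n = 6) and had 1 sign in 6 of 6 libraries (two-sided exact sign-flip permutation p = 0.031, the smallest 6 libraries give). Counts over all libraries were 25175 and 5336 reads of 51 nt for the chromosome 6 and 9-copy isodecoders, and 6360 and 39324 reads ending at 31 to 36. The comparison of isodecoders was singled out after its values were known.

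**Figure D5:**
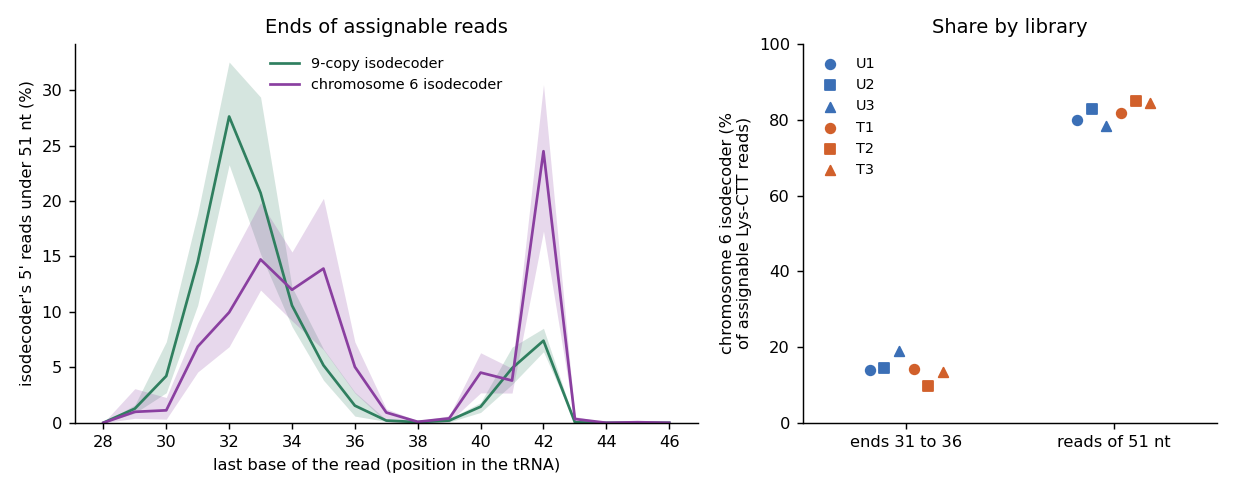
Left, percent of each isodecoder's assignable 5′ reads under 51 nt (vertical axis) by last base (horizontal axis), as the mean over 6 libraries with the range shaded, and right, the chromosome 6 isodecoder's share of assignable Lys-CTT reads in each library. The 9-copy reads peak at 32 and the chromosome 6 reads at 42, and the chromosome 6 share is 9.72% to 18.9% of reads ending at 31 to 36 against 78.3% to 84.9% of reads of 51 nt.

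Among reads under 51 nt the chromosome 6 isodecoder was also cut further 3′. Its mean last base in reads of 26 to 40 nt was 35.53, 35.73 and 35.11 untreated and 35.12, 35.65 and 35.62 with taurocholate, and that of the 9-copy isodecoder was 33.65, 33.67 and 33.70 untreated and 33.14, 33.10 and 33.498 with taurocholate. It lay 2.001 ± 0.369 nt further 3′ in 6 of 6 libraries (SD, n = 6, exact sign-flip permutation p = 0.031). Ends at 40 to 42 held 24.2% to 39.1% of its reads and 11.2% to 15.6% of the 9-copy reads. Between the groups, the 9-copy means differed by -0.427 nt and stood apart (exact permutation p = 0.1), whereas the chromosome 6 means overlapped (0.00814 nt, exact permutation p = 0.9). The change in the distance between the 2 did not pass its own test (exact permutation p = 0.2). By zone, chromosome 6 ends at 28 to 32 held 15.0% untreated and 22.9% with taurocholate. Its ends at 33 to 36 held 52.0% and 39.3%, and in both zones the groups stood apart (exact permutation p = 0.1 each). Its ends at 40 to 42 held 30.5% and 35.2%, with overlap. The share of ends at 33 among ends at 32 or 33 was, for chromosome 6, 74.3%, 56.4% and 65.3% untreated and 54.9%, 52.4% and 54.2% with taurocholate. For the 9 copies it was 55.6%, 44.0% and 50.8% untreated and 34.7%, 36.53% and 34.002% with taurocholate. The groups stood apart in both. Over error-free reads the chromosome 6 groups overlapped (67.0% against 53.6%, exact permutation p = 0.2).

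Single read sequences showed the same order by end. Of 8461 Lys sequences 316 were tested among 2233 tRNA sequences, and 0.00% of all passed after adjustment in edgeR, whereas DESeq2 called 44, 5 of them Lys. Unadjusted p values under 0.05 numbered 315 in edgeR and 305 in DESeq2. At an unadjusted p under 0.05, 41 Lys sequences were higher and 22 lower (13% and 6.96%), against 6.99% and 7.12% of all. Under library totals 8 of 28 such Lys sequences were higher, against 33 of 184 such sequences over all tRNAs. With 1 library left out, such Lys sequences numbered from 30 to 47, against 161 to 292 over all tRNAs. There were 30 without untreated library 3 (161 over all), 35 without untreated library 1 (250) and 39 without taurocholate library 2 (254). Groups did not overlap upwards for 59 and downwards for 34 (18.7% and 10.8%), against 12% and 11.7% of all. Of 40 Lys-CTT 5′ sequences ending at 28 to 32, 38 had a positive log2 fold change (median 0.76). Of 45 ending at 33 to 36, 33 had a negative one (median -0.29). Those ending at 16 to 27 had 13 of 20 positive, and those ending at 40 to 43 had 16 of 28 negative. Of all tRNA sequences tested, 1165 of 2233 had a positive one. The zones follow the cut-site result of the same reads. Over all tRNA sequences the median was 0.0346, and -0.16 under library totals. Sequences that share an end are not independent of the cut-site counts.

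The 3 Lys sequences of smallest p in each direction are these, the 3 higher ones first. The capital is the last base, and in the Lys-TTT fragment the base at position 28.
Lys-CTT 1 to 32: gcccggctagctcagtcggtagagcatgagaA
Lys-CTT 3 to 28: ccggctagctcagtcggtagagcatG
Lys-TTT 13 to 32: cagtcggtagagcatCagac
Lys-CTT 1 to 35, chromosome 6: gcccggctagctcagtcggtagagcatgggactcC
Lys-CTT 16 to 33: tcggtagagcatgagacC
Lys-CTT 19 to 54: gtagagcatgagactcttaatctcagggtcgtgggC
Of these 6, 4 carry a last base that differs from the reference: C32A in the first, and T35C, T33C and T54C in the last 3. The first had 147, 184 and 94.5 CPM untreated and 289, 361 and 354 CPM with taurocholate and the second 242, 201 and 161 CPM untreated and 400.3, 413 and 344 CPM with taurocholate, in both with the groups apart. Their log2 fold changes were 1.23 (SE 0.30) and 0.94 (SE 0.25), each with an adjusted p of 0.301 in edgeR with Benjamini-Hochberg adjustment and 0.0195 and 0.0494 in DESeq2. The other 3 Lys sequences that DESeq2 called were error-free Lys-CTT fragments of 14 to 30, 3 to 30 and 3 to 31, named here after their values were seen. DESeq2 gave them log2 fold changes of 1.13, 1.33 and 0.82 with adjusted p values of 0.0348, 0.0191 and 0.0494, and edgeR gave adjusted p values of 0.301 to 0.313. The Lys-TTT fragment had 16.9, 26.3 and 33.1 CPM untreated and 62.7, 61.7 and 64.8 CPM with taurocholate (log2 fold change 1.27, SE 0.33), also with the groups apart. The lower 3 had log2 fold changes of -1.21 (SE 0.38), -0.96 (SE 0.30) and -1.69 (SE 0.54), each with an adjusted p of 0.301 and with groups that did not overlap.

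The most abundant Lys sequences did not pass either. The 9-copy fragment of 1 to 33 had 4297, 3335 and 3293 CPM untreated and 2011, 3642 and 2719.6 CPM with taurocholate with overlapping groups (log2 fold change -0.38, SE 0.27, adjusted p = 0.533, edgeR with Benjamini-Hochberg adjustment). The fragment of 1 to 32, which is 1 base shorter, had 2425, 3055 and 2282 CPM untreated and 3926, 3766 and 3555 CPM with taurocholate, with every taurocholate library above every untreated one (log2 fold change 0.53, SE 0.20, adjusted p = 0.321). The 51-nt chromosome 6 read ranged from 1816 to 46733 CPM, with its highest values in untreated library 2 and taurocholate library 1 (log2 fold change 1.22, SE 1.15, adjusted p = 0.621). For Lys-TTT, the fragment of 60 to 76 had 2836, 3966 and 3978 CPM untreated and 6140.0, 3296 and 4706 CPM with taurocholate (log2 fold change 0.39, SE 0.29, adjusted p = 0.549), and those of 60 to 75 and 61 to 76 had log2 fold changes of -0.11 (SE 0.32) and 0.20 (SE 0.25). All 3 had overlapping groups.

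Reads shared by both anticodons were mostly short internal fragments. Between 97.5% and 100% of them carried a mismatch. The 3 most abundant are shown because the capital, their last base, is where they differ from Lys-CTT (C34T, G28T and G28A).
shared 16 to 34: tcggtagagcatgagactT
shared 13 to 28: cagtcggtagagcatT
shared 13 to 28, with A: cagtcggtagagcatA
The first had 417, 276 and 317 CPM untreated and 371, 470.1 and 446 CPM with taurocholate. The 3 had log2 fold changes of 0.35 (SE 0.25), 0.26 (SE 0.32) and 0.45 (SE 0.33) in order, with overlapping groups.

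Internal Lys-CTT fragments ended at positions like those of the 5′ fragments. Of i-tRF of Lys-CTT, 65.0% to 76.3% started at positions 13 to 16 in the D arm and 49.2% to 60.03% ended at 31 to 34. The span of 16 to 32 led with 4481 reads in all, followed by 14 to 32 with 2381 and 16 to 42 with 2177. The share of i-tRF reads that end at 54 was 10.7%, 15.0% and 11.6% untreated and 5.47%, 5.79% and 10.2% with taurocholate. The taurocholate libraries were below the untreated ones there, a share singled out after its values were seen.

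Lys was set beside 5 other tRNA families whose 5′ fragments are often followed under stress (Gly, Glu, Val, His and Asp). Its mean end lay closest to the anticodon. Counted from the first anticodon base, the mean end of Lys 5′ reads of 26 to 40 nt was, in nt, -0.282, -0.230 and -0.307 untreated and -0.876, -0.888 and -0.470 with taurocholate. Asp was next, at -1.66 to -0.756 nt. Gly lay at -1.89 to -1.19, Val at -2.02 to -1.6005, Glu at -2.90 to -2.17 and His at -3.61 to -3.27 nt. In each library Lys lay nearer to the anticodon than each of the 5, by a mean of 0.632 nt (Asp) to 2.96 nt (His), with an exact sign-flip permutation p of 0.031 for each (adjusted p = 0.0347 over 10 comparisons). Over error-free reads, counted from the first base, the distance to Asp was 0.292 nt, with the same sign in 5 of 6 libraries (exact sign-flip p = 0.0938). The Lys mean pools reads with different starts. Lys-CTT reads starting at 1 had mean ends at positions 32.36 to 33.10, and those starting at 3 at 33.99 to 35.14, with the anticodon from 34. The other families were not split by start, so whether the order holds for reads of 1 start was not tested.

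The earlier ends with taurocholate were also seen in the other 5 families. All 6 families had taurocholate means below every untreated one, with differences of -0.471 nt for Lys, -0.497 for Gly, -0.423 for Glu, -0.244 for Val, -0.199 for His and -0.612 for Asp (exact permutation p = 0.1 each). The change of Lys relative to each of the others had exact permutation p values of 0.2 to 1. Over error-free reads it was -0.284 nt relative to Glu and -0.374 nt relative to Val, with groups that did not overlap (exact permutation p = 0.1 each). The tiRNA-5 share of Lys reads was 36.99%, 50.2% and 35.4% untreated and 55.1%, 40.4% and 35.01% with taurocholate. That share was below the Gly share in 6 of 6 libraries (mean difference -15.4 points) and above those of Val (18.7), His (29.4) and Asp (34.2) in 6 of 6 (exact sign-flip p = 0.031 each). Against Glu it was 4.82 points with mixed signs (exact sign-flip p = 0.375), and -5.13 points, lower in 6 of 6 libraries, without reads of 51 nt (exact sign-flip p = 0.031). Over error-free reads it was 11.9 points and higher in 6 of 6 (exact sign-flip p = 0.031). Over class features, 10 of 13 tested tiRNA-5 of these families had a positive log2 fold change (median 0.33) and 10 of 13 tRF-5 (median 0.29), beside 0.36 and 0.45 for Lys-CTT. Of all class features tested, 120 of 230 had a positive one (median 0.00727).

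The other 9 Lys-CTT references had few reads of their own. Reads that aligned to 1 of them alone numbered 0 to 227 per reference. Reads that matched them together with other Lys references were many more for some, with 40153 reads aligned to the chromosome 17 Lys-CTT reference. Most such reads, 227, were on the chromosome 13 reference. The chromosome 5 reference had 19 reads, 1 of them its own. The chromosome 6 reference had 44061 reads of its own. The 9 identical copies cannot be told apart by any read.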

How the data were processed

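Small RNA was read from 6 libraries. Per the labels' protocols, RNA was freed of amino acids, its ends were repaired and base methyl groups removed, and a gel step chose library sizes, which bounds the fragment lengths seen. The authors deposited raw counts. Per the file headers, a line holds a read sequence, its count, and an alignment with its positions and mismatches. FastQC, cutadapt and Novoalign 2.07.11 are named in the submitters' processing notes. The genome build is not given in the sources used here. No coordinates or promoters were used, and positions are those within the tRNA.

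Each read sequence was counted once per library by its number of reads. The CCA end was taken from error-free reads, for 320 of 403 references. Features were tested in R 4.3.3 with edgeR 4.0.16 (quasi-likelihood, TMM, filterByExpr, Benjamini-Hochberg over all tRNA features of the table, group as the only term). The test was also run on simulated counts with known changes, and how many of these it recovered is not given here. CPM are counts over TMM-scaled library sizes. Alternatives were DESeq2 1.42.0, library totals, TMM over tRNA and miRNA tables, no low-count filter, no reads of 51 nt, error-free reads, tolerance 0, any Lys alignment, 18 to 50 nt, each library left out, and the replicate block.

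Members, lists and tests were chosen with earlier results of these data known. Named were Lys classes at a mean of at least 20 CPM, the 5 most abundant cut sites and 3 most abundant sequences of each anticodon group among those tested, and the 3 sites and 3 sequences of smallest p in each direction at 10 CPM or more.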

Additional observations from a re-analysis of the deposited data

How the results depend on the processing

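No Lys class feature was called under any alternative or with any library left out. Without a low-count filter 1 of 101 Lys cut sites (reads of 51 nt) and 10 of 8461 Lys sequences were called. Over all tRNA features it was 19 of 2003 cut sites and 125 of 67949 sequences. DESeq2 called 5 of 316 Lys sequences, against 44 of 2233 over all. The 5 differences between the anticodons fell to 0 calls over error-free reads (tiRNA-5 48.6 and tRF-5 18.4 points, adjusted p = 0.0521, exact sign-flip). Lys-TTT had 0 error-free reads of either class, so these values are the Lys-CTT shares. The 5 and the 9 differences from other amino acids fell to 0 calls with any library left out, because 5 libraries cannot give an exact p under 0.0625. Mean cut position and Lys share kept their direction under each alternative run, the former from -0.609 to -0.399 nt with a library left out. With the replicate number as a block (pairing by number), the mean cut difference was -0.471 nt and the count of called Lys features stayed 0. With the block, 8 Lys cut sites and 49 Lys sequences had an unadjusted p under 0.05, against 8 and 63 without it. Over all tRNA features the numbers were 66 and 275 with the block, against 71 and 315 without it. Same-numbered libraries share only a number: over 230 class features their deviations from the group means correlated by -0.19, 0.06 and 0.26, and 3 of the 6 libraries correlated best with their own number. Over all tRNA features, 3 classes, 19 cut sites and 125 sequences were called without the low-count filter and 1 class at tolerance 0, against 0. The 10 Lys sequences called without the filter had most of their reads in taurocholate library 1.

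Log2 fold changes near 0 turned sign. Under library totals i-tRF of Lys-CTT was -0.0404, i-tRF of Lys-TTT -0.0218 (and -0.0114 at tolerance 0), the Lys-TTT starts at 60 and 61 -0.0492 and -0.0669, the Lys-TTT fragment of 61 to 76 -0.0113 and Lys-CTT ends at 34 -0.16. Those ends were -0.0204 without reads of 51 nt, -0.0486 at the last matched base, -0.0594 in DESeq2, -0.0173 without the filter and -0.00940 with the block. Shares that turned were shared reads over error-free reads (-0.00319 points), Lys-CTT tiRNA-5 without reads of 51 nt (-3.501), Lys-CTT tiRNA-3 (0.000654 without reads of 51 nt, 0.00377 error-free, 0.00773 at tolerance 0), the i-tRF difference between anticodons at tolerance 0 (0.174) and the Lys to Glu difference without reads of 51 nt (-5.13). The chromosome 6 mean cut was -0.222 nt over error-free reads and -0.0182 nt at the last matched base. The last-matched-base and anticodon-counted alternatives were chosen after seeing the data. The cause was not tested.

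Leaving out 1 library turned the sign of log2 fold changes of tRF-3 Lys-CTT (-0.20 to 0.12), ends at 34 (-0.17 to 0.0632), reads of 51 nt (-0.24 to 2.71; chromosome 6 read -0.21 to 3.10), Lys-TTT starts at 60 (-0.0152 to 0.24) and 61 (-0.0243 to 0.16) and the fragment of 60 to 75 (-0.38 to 0.19). It did so for the shares of Lys-TTT (-0.0924 to 0.116 points) and shared reads (-0.0169 to 0.0182), for Lys-CTT tiRNA-5 (-3.76 to 7.22) and tiRNA-3 (-0.0150 to 0.00964), Lys-TTT i-tRF (-2.74 to 1.52) and tRF-3 (-1.35 to 2.90), and the chromosome 6 mean cut (-0.166 to 0.179 nt). With 3 libraries a group and 2 of the 6 rich in reads of 51 nt, changes in long Lys-CTT reads were not detectable.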

Other observations

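Reads that aligned to Lys tRNA precursors and to no mature tRNA are outside the Lys reads above. They numbered 182, 374 and 242 untreated and 203, 182 and 286 with taurocholate. Per 1000000 tRNA reads they were 939, 1073 and 1053 untreated and 600.0, 714 and 933 with taurocholate. The taurocholate libraries lay below the untreated ones (exact permutation p = 0.1, the smallest that 3 against 3 libraries give). No read aligned to a mitochondrial Lys tRNA.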
